A study of Mus musculus with 24 samples.

Results

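Dopamine receptors and the signaling proteins directly downstream of them were examined in the nucleus accumbens (NAc) of stressed and unstressed mice of both sexes. The 8 genes were taken by name from the 38293 genes of the mRNA table. They were the receptor genes *Drd1a* (the older symbol of *Drd1*), *Drd2* and *Drd3*, the G protein gene *Gnal*, the adenylyl cyclase gene *Adcy5*, the signal terminator gene *Rgs9*, *Ppp1r1b*, which encodes DARPP-32, and the adenosine receptor gene *Adora2a*. All 8 passed the filter on low counts and were among the 18593 genes tested. RNA-Seq was done on 12 libraries, 3 for each combination of sex and stress. All mice were of the C57BL/6J strain and 9 weeks old by the labels. Unstressed males (NSM) and unstressed females (NSF) stayed in their home cages, whereas stressed males (SM) and stressed females (SF) went through subchronic variable stress (SCVS), in which foot shock, tail suspension and restraint alternated over 6 days. Tissue was taken a day after the last stressor. Each library pooled 10 punches from 5 mice, so differences between single mice were not seen, and all females were in estrus or proestrus. By the study's methods the 3 libraries of a group are independent pools.

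Most neurons of the NAc are medium spiny neurons, which fall into a class with D1 receptors and a class with D2 receptors and the adenosine receptor encoded by *Adora2a*. The D1 and adenosine receptors couple to the olfactory-type stimulatory G protein subunit encoded by *Gnal*, which activates the cyclase encoded by *Adcy5*, and D2 receptors inhibit the cyclase. Cyclic AMP activates protein kinase A, which phosphorylates DARPP-32 and turns it into an inhibitor of protein phosphatase 1, and RGS9 speeds the shutdown of inhibitory G proteins.

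Between 41076780 and 60867747 reads per library were assigned to genes. Levels are given as CPM, the reads of a gene scaled to the TMM-adjusted size of the library. A gene was taken as regulated when the unadjusted limma p was under 0.05 and the fold change at least 1.3, and p values were adjusted by the Benjamini-Hochberg method across the 18593 tested genes. The libraries differed in their content of cortical glutamatergic neuron transcripts. The summed level of 6 markers (among them *Slc17a7*, *Neurod6*, *Neurod2*, *Tbr1* and *Emx1*, none of these 5 at 0 in any library) ran from 5.43 to 21.3 CPM in NSM, from 47.9 to 197 in SM, from 21.3 to 364 in NSF and from 42.6 to 114 in SF. The NSM and SM ranges did not overlap. In 1 library, NSM replicate 1, 4 choroid plexus markers summed to 95.8 CPM, against 23.4 to 32.2 in the other libraries.

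The 8 genes lay on 6 chromosomes, and all were annotated as protein coding. On the NCBIM37 build *Drd1a* (ENSMUSG00000021478) occupies chr13:54146555-54151027 on the minus strand. *Drd2* (ENSMUSG00000032259) occupies chr9:49148732-49216282 and *Drd3* (ENSMUSG00000022705) chr16:43762334-43823045, both on the plus strand. *Adcy5* (ENSMUSG00000022840) occupies chr16:35154963-35305823 on the plus strand. *Ppp1r1b* (ENSMUSG00000061718) occupies chr11:98209718-98219110 on the plus strand and *Rgs9* (ENSMUSG00000020599) chr11:109086669-109159443 on the minus strand. *Adora2a* (ENSMUSG00000020178) occupies chr10:74779688-74797533 on the plus strand. *Ppp1r1b* shares 460 exon bases with *1700003D09Rik*, and *Gnal* shares 365 with *Mppe1*, each on the opposite strand. The strand setting of the counting was not stated, and these partners had 247 to 474 and 464 to 730 reads per library, against at least 36382 reads of *Ppp1r1b* and 41639 of *Gnal*.

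The 250 bases upstream of a start site were available for 5 of the 8 genes in the RefSeq annotation of GRCm38.p6. Those of 3 receptors are printed because the transcripts of *Drd1a* and *Drd2* varied together between pools while *Drd3*, at a far lower level, was the 1 member called in a comparison. They are *Drd1a* at chr13:54054781-54055030 (minus strand, the downstream of its pair of RefSeq starts), *Drd2* at chr9:49340153-49340402 (plus strand) and *Drd3* at chr16:43761971-43762220 (plus strand), written 5′ to 3′ along the gene. Capitals mark the GC box GGGCGG or its reverse complement CCGCCC.
*Drd1a*: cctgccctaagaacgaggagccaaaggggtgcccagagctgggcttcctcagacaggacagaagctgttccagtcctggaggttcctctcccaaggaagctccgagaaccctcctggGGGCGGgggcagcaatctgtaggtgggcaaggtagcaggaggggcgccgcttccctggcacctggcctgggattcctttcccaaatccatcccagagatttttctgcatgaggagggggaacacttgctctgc
*Drd2*: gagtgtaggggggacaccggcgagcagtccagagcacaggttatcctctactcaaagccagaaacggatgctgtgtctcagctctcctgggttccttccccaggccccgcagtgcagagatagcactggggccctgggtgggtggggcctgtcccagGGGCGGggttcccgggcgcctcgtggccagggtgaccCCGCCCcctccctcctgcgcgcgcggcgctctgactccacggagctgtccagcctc
*Drd3*: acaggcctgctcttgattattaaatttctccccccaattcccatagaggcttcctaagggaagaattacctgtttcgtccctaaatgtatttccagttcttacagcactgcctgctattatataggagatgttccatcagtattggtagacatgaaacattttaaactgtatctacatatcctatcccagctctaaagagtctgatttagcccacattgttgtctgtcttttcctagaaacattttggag
The *Drd2* sequence held 2 GC boxes, the *Drd1a* sequence 1 and the *Drd3* sequence 0. The sequence upstream of the other *Drd1a* start, chr13:54055659-54055908, held 0 (64.0% G and C), so the count for *Drd1a* depends on the start. Of the 32841 upstream regions of this length, 32.7% held at least 1. G and C made up 68.8% of the *Drd2* sequence, 60.8% of the *Drd1a* sequence and 39.2% of the *Drd3* sequence, against a median of 52.4% over all regions. TATAAA (in 12.4% of all regions), TGACG (the core of a cyclic AMP response element, 17.8%) and AGAACA (the core of a glucocorticoid receptor site, 16.1%), searched on both strands, were in none of these 3 sequences. These matches are descriptions of the letters and say nothing about binding in the NAc.

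Transcripts of 7 of the 8 genes were abundant in the tissue. Levels were compared between genes as RPKM, the CPM divided by the exon length in kilobases, and ranked among the 17795 tested genes with a symbol. *Ppp1r1b* had 301 ± 27.5 RPKM (SD, n = 12 libraries) and ranked at position 65. *Adcy5* had 218 ± 15.6 RPKM (position 107) and *Gnal* 129 ± 10.2 (position 247). *Adora2a* had 111 ± 7.08 RPKM (position 292), *Drd1a* 90.4 ± 9.74 (position 390), *Rgs9* 66.9 ± 4.12 (position 630) and *Drd2* 57.1 ± 3.95 (position 796). *Drd3* followed at 7.01 ± 1.01 RPKM, position 6752. Neighbors in this order whose ranges over the 12 libraries overlapped were *Gnal* (112 to 145 RPKM) with *Adora2a* (98.0 to 125), *Adora2a* with *Drd1a* (77.3 to 109), and *Rgs9* (60.6 to 73.8) with *Drd2* (51.1 to 62.9). *Drd3*, whose range was 5.57 to 8.80 RPKM, was separated from all others. Its reads, 371 to 720 per library, were far fewer than the 6025 to 9707 of *Drd2* and the 12772 to 19493 of *Drd1a*.

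**Figure D1:**
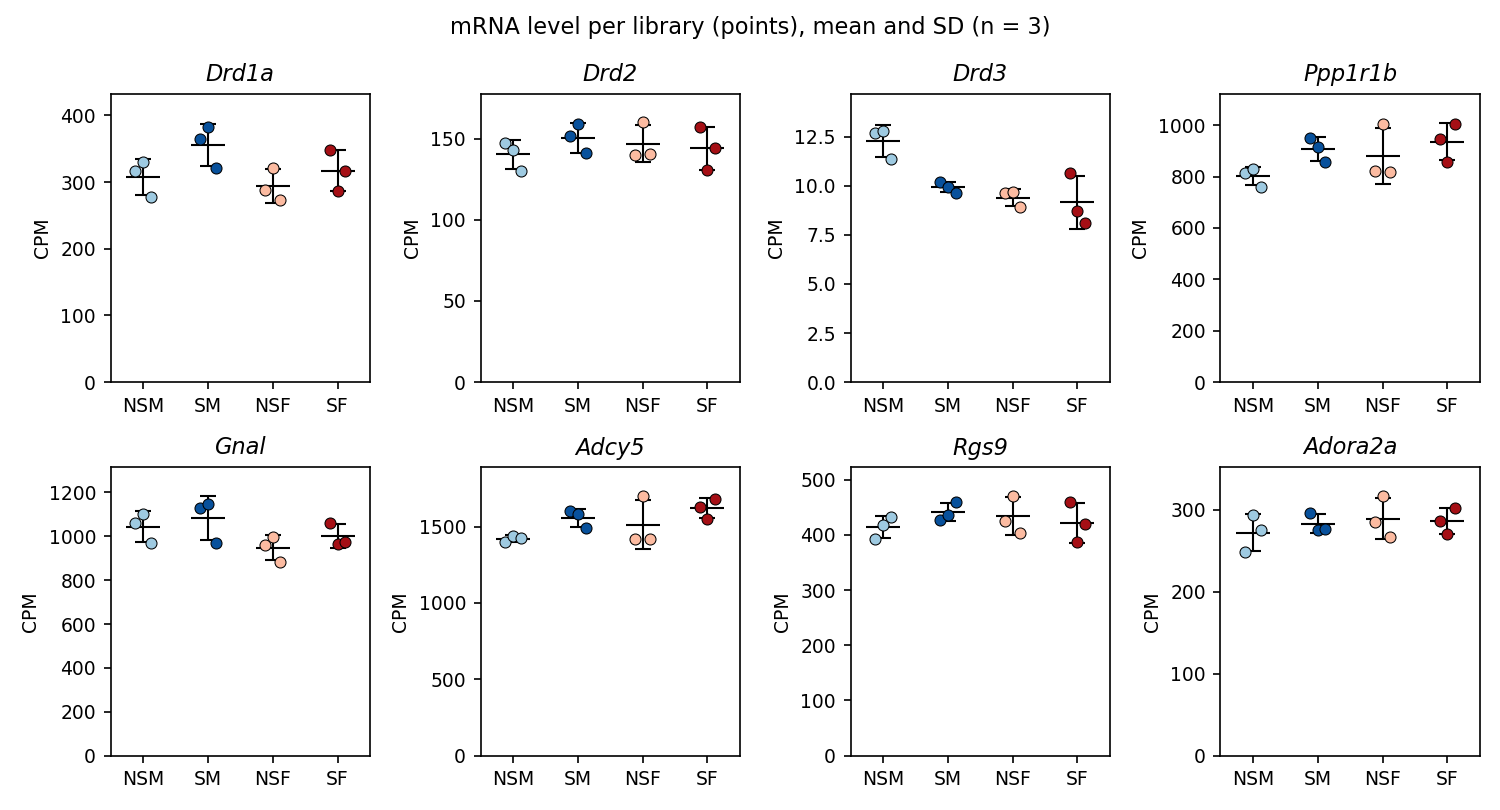
mRNA level in CPM (vertical axes, starting at 0) of each of the 8 genes in unstressed males (NSM), stressed males (SM), unstressed females (NSF) and stressed females (SF). Points are libraries, horizontal bars are means and whiskers are SD (n = 3). *Drd3* stood higher in the 3 NSM libraries (11.3 to 12.8 CPM) than in all 9 others (8.11 to 10.7), while the groups of the other genes lay close together.

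The first question was whether SCVS changed the cascade in males. None of the 8 genes was called in SM against NSM by limma, by edgeR's quasi-likelihood test or by DESeq2, where 6.44% of all tested genes were called by limma. The unadjusted p alone was under 0.05 for 3 genes, *Drd3*, *Drd1a* and *Ppp1r1b*, against 21.5% of all tested genes, and no member had an adjusted p under 0.05, against 3.32% of all genes. *Drd3*, *Ppp1r1b* and *Adcy5* did not overlap between SM and NSM, 3 of 8 genes, where 23.0% of all genes did not overlap.

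*Drd3* encodes a D2-like receptor that is concentrated in the ventral striatum and the islands of Calleja. Its level was 12.7, 12.8 and 11.3 CPM in the 3 NSM libraries and 10.2, 9.95 and 9.66 CPM in the 3 SM libraries. Every stressed pool was below every unstressed pool. The level in SM was 0.809 times that in NSM, a log2 fold change of -0.31 (SE 0.09, 95% confidence interval -0.50 to -0.11, adjusted p = 0.0816, limma), so that the difference did not reach the fold of 1.3. Leaving out each library in turn gave log2 fold changes from -0.36 to -0.26 with adjusted p from 0.0431 to 0.250 (limma). The 5 named cortical markers were higher in SM than in NSM, by 2.35 (*Emx1*) to 3.76 (*Neurod6*) on the log2 scale, and with the mean level of the marker list as a covariate the log2 fold change of *Drd3* was -0.18 (SE 0.12, adjusted p = 0.481, limma, where the 13 alternatives gave 0.0274 to 0.481). Markers of oligodendrocytes summed to 4423 to 4915 CPM in NSM and to 5302 to 5349 CPM in SM, all 6 higher, and their part in the result was not tested. In pooled tissue, fewer cells that express a gene and less mRNA per cell cannot be told apart.

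*Drd1a*, the receptor of the direct pathway class of spiny neurons, was measured at 317, 330 and 278 CPM in NSM and at 364, 383 and 321 CPM in SM. The lowest stressed pool lay below the highest unstressed pool, so the groups overlapped. The log2 fold change was 0.21 (SE 0.09, 95% confidence interval 0.02 to 0.40), and its adjusted p was 0.195 (limma). With the cortical marker level as a covariate it was 0.38 (SE 0.11, unadjusted p = 0.00328, adjusted p = 0.148, limma, where the 13 alternatives gave adjusted p of 0.107 to 0.264), which passed the fold of 1.3. *Drd2*, the receptor of the indirect pathway class and the autoreceptor of dopamine neurons, had 148, 143 and 130 CPM in NSM and 152, 159 and 141 CPM in SM. These groups overlapped as well, at a log2 fold change of 0.10 (SE 0.08, 95% confidence interval -0.06 to 0.27, adjusted p = 0.463, limma).

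*Ppp1r1b* had 815, 830 and 761 CPM in NSM and 949, 915 and 855 CPM in SM. Its stressed pools were all above its unstressed pools, at a log2 fold change of 0.18 (SE 0.08, 95% confidence interval 0.00 to 0.35, adjusted p = 0.223, limma). With the cortical covariate the value was 0.35 (SE 0.09, adjusted p = 0.139, limma, where the 13 alternatives gave 0.125 to 0.364). *Adcy5*, the main cyclase of spiny neurons, had 1398, 1442 and 1424 CPM in NSM and 1602, 1580 and 1490 CPM in SM. It also separated the groups, by 0.13 on the log2 scale (SE 0.07, 95% confidence interval -0.01 to 0.27, adjusted p = 0.262, limma). The remaining 3 genes overlapped between SM and NSM. *Gnal* (ENSMUSG00000024524, chr18:67247990-67386446 on the plus strand of NCBIM37) had a log2 fold change of 0.05 (95% confidence interval -0.11 to 0.21), *Rgs9* of 0.09 (-0.06 to 0.24) and *Adora2a* of 0.06 (-0.10 to 0.21), with adjusted p from 0.475 to 0.720 (limma). For each of these 3 genes the interval lay within a fold of 1.3 in either direction.

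**Figure D2:**
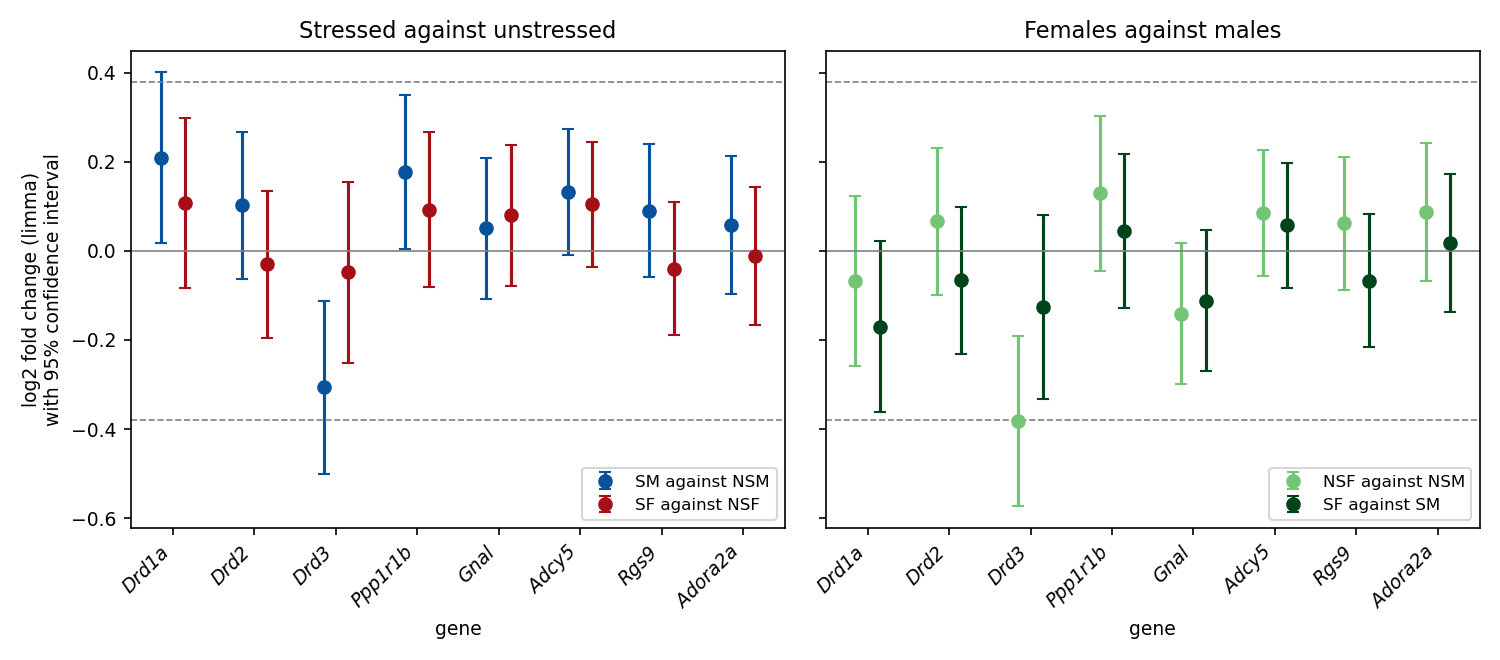
Log2 fold changes from limma (vertical axis, shared) with 95% confidence intervals for each gene (horizontal axis), for stressed against unstressed mice of each sex (left) and for females against males without and with stress (right). Dashed lines mark a fold of 1.3 in either direction. The point of *Drd3* in NSF against NSM (-0.38) is the 1 past a dashed line, and *Drd3* in SM against NSM (-0.31) is the next farthest from 0.

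Females were compared in the same way. None of the 8 genes was called in SF against NSF by limma, edgeR or DESeq2, where 1.73% of all genes were called by limma. The unadjusted limma p was under 0.05 for 0 of the 8, where it was for 4.23% of all genes, and no gene separated SF from NSF, where 11.3% of all genes did. *Drd3* had 9.65, 9.67 and 8.90 CPM in NSF and 10.7, 8.71 and 8.11 CPM in SF. Stressed pools stood both above and below the unstressed ones, at a log2 fold change of -0.05 (SE 0.09, 95% confidence interval -0.25 to 0.15, adjusted p = 0.968, limma). *Drd1a* had 288, 322 and 272 CPM in NSF and 348, 286 and 316 CPM in SF, a log2 fold change of 0.11 (SE 0.09, 95% confidence interval -0.08 to 0.30, adjusted p = 0.948, limma). *Drd2* had 140, 160 and 141 CPM in NSF and 157, 131 and 144 CPM in SF, a log2 fold change of -0.03 (95% confidence interval -0.19 to 0.13). NSF replicate 2 was the highest NSF pool for all 8 genes, and it was the NSF pool with the lowest cortical marker sum, 21.3 CPM against 256 and 364 in the others.

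*Ppp1r1b* showed this most clearly, with 820, 1006 and 817 CPM in NSF beside 947, 858 and 1003 CPM in SF. Its log2 fold change was 0.09 (95% confidence interval -0.08 to 0.27). *Adcy5* had 1421, 1701 and 1418 CPM in NSF and 1631, 1552 and 1679 CPM in SF, a log2 fold change of 0.10 (95% confidence interval -0.04 to 0.24). *Gnal* had a value of 0.08 (-0.08 to 0.24), *Rgs9* of -0.04 (-0.19 to 0.11) and *Adora2a* of -0.01 (-0.17 to 0.14). The female intervals of all 8 genes lay within a fold of 1.3 in either direction. Without the 2 libraries highest in cortical markers, NSF replicates 1 and 3, the female log2 fold changes of *Ppp1r1b*, *Adcy5* and *Drd1a* turned to -0.10, -0.06 and -0.01. This fit kept 1 NSF library, replicate 2, the highest NSF pool for all 8 genes. Replicate 2 was also the NSF pool with the lowest cortical marker sum. The choice of library and its cortical content cannot be told apart in this fit.

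Whether stress acted differently in the sexes was asked by the sex-by-stress interaction, the female minus the male log2 fold change. None of the 8 genes was called by limma, edgeR or DESeq2, where 4.42% of all genes were by limma, and 0 had an unadjusted limma p under 0.05. *Drd3* had the largest value, 0.26 (SE 0.13, 95% confidence interval -0.02 to 0.54, adjusted p = 0.569, limma). With the cortical covariate it was 0.08 (SE 0.17, adjusted p = 0.953, limma, where the 12 alternatives gave 0.407 to 0.970). The other 7 genes lay between -0.13 and 0.03, with adjusted p from 0.735 to 0.959 (limma). The male and the female value of *Drd3* were therefore not shown to differ.

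The sexes were compared without stress as the baseline. In NSF against NSM *Drd3* was the 1 of 8 genes called, where 5.31% of all genes were called and 1.15% were called lower in females. *Drd3* had 9.41 ± 0.438 CPM in NSF and 12.3 ± 0.818 CPM in NSM, and all NSF pools were below all NSM pools. Of the 8 genes it alone did not overlap, where 19.5% of all genes did not. Its level in NSF was 0.767 times that in NSM, a log2 fold change of -0.38 (SE 0.09, 95% confidence interval -0.57 to -0.19, unadjusted p = 0.000746, adjusted p = 0.0909, limma). This comparison and that of SM with NSM share the 3 NSM libraries.

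The call rested on a value close to the fold of 1.3. It was kept in 9 of the 12 fits that each left out 1 library, whose log2 fold changes ran from -0.44 to -0.35, and was lost without NSF replicate 3 (-0.35), NSM replicate 1 (-0.36) or NSM replicate 2 (-0.35), each with an unadjusted limma p of at most 0.00441 but a fold under 1.3. The 5 named cortical markers were higher in NSF than in NSM, by 2.75 (*Tbr1*) to 3.73 (*Neurod6*) on the log2 scale, and all 5 were called. With the level of the marker list as a covariate *Drd3* stood at -0.24 (SE 0.12, unadjusted p = 0.0700, adjusted p = 0.958, limma), and without the 2 libraries highest in these markers, which left 1 NSF library assumed to vary like the other groups, at -0.36 (SE 0.13, adjusted p = 0.492, limma). Neither value passed both thresholds. The 13 alternatives gave adjusted p from 0.0146 to 0.958. *Zic4*, 1 of 2 tested markers of hypothalamus and septum, was called higher in NSF than in NSM, by 0.97 on the log2 scale. Its reads were 200 to 305 in NSF and 125 to 157 in NSM. The other tested marker of this list went the other way, at -0.22, and was not called. Markers of oligodendrocytes summed to 4423 to 4915 CPM in NSM and to 5036 to 5416 CPM in NSF, all 6 higher and 0 called. The part of *Zic4* and of these markers in the value of *Drd3* was not tested.

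For the other 7 genes no difference between NSF and NSM passed the test. *Gnal* had 947 ± 56.7 CPM in NSF and 1044 ± 69.1 in NSM, a log2 fold change of -0.14 (SE 0.07, 95% confidence interval -0.30 to 0.02, adjusted p = 0.379, limma). *Ppp1r1b* had 881 ± 108 CPM in NSF and 802 ± 36.5 in NSM, a log2 fold change of 0.13 (SE 0.08, 95% confidence interval -0.04 to 0.30, adjusted p = 0.468, limma). *Drd1a*, *Drd2*, *Adcy5*, *Rgs9* and *Adora2a* lay between -0.07 and 0.09. Only for *Drd3* did the interval extend past a fold of 1.3.

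Among stressed mice the *Drd3* means of the sexes lay closer together, but the sex-by-stress interaction of *Drd3* was not called. SF had 9.16 ± 1.34 CPM and SM 9.93 ± 0.268 CPM, a log2 fold change of -0.13 (SE 0.10, 95% confidence interval -0.33 to 0.08, adjusted p = 0.552, limma). None of the 8 genes was called by limma, edgeR or DESeq2, where 5.55% of all genes were by limma, 0 had an unadjusted limma p under 0.05, and none separated SF from SM, where 20.4% of all genes did. The largest value was that of *Drd1a*, with 317 ± 30.7 CPM in SF and 356 ± 31.4 CPM in SM, a log2 fold change of -0.17 (SE 0.09, 95% confidence interval -0.36 to 0.02, adjusted p = 0.367, limma). By mean the order of *Drd3* was NSM, SM, NSF and SF. SM and NSF overlapped at 9.66 and 9.67 CPM, and SF, the group with the widest spread, overlapped with both.

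A ratio of reads within a library does not depend on library scaling, and the receptor ratios are given as a description without a test. There were 2.15, 2.30 and 2.14 reads of *Drd1a* per read of *Drd2* in NSM and 2.40, 2.41 and 2.28 in SM. In females the values were 2.06, 2.01 and 1.94 without stress and 2.21, 2.19 and 2.19 after SCVS. The ratio was higher after SCVS in all pools of females. In males it overlapped narrowly, with 2.28 in SM replicate 3 and 2.30 in NSM replicate 2. How often ratios of other genes separate these groups was not determined, and the ratios were chosen after the data were seen. Unstressed females had the lowest values of the 4 groups. Per read of *Drd2* there were 0.0861, 0.0894 and 0.0872 reads of *Drd3* in NSM, against 0.0626 to 0.0685 in SM, 0.0604 to 0.0689 in NSF and 0.0562 to 0.0679 in SF. The 3 NSM pools stood above all others on this scale as well. The ratio uses the same *Drd3* reads, so this adds no separate evidence. The ratio of *Adora2a* to *Drd2*, both genes of the indirect pathway class, was 1.95 ± 0.230 in NSM, 1.88 ± 0.129 in SM, 1.97 ± 0.0725 in NSF and 1.99 ± 0.153 in SF. Reads of *Gnal* per read of *Adcy5* came to 0.735 ± 0.0476 in NSM and 0.694 ± 0.0393 in SM, and to 0.628 ± 0.0458 in NSF and 0.618 ± 0.0350 in SF.

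**Figure D3:**
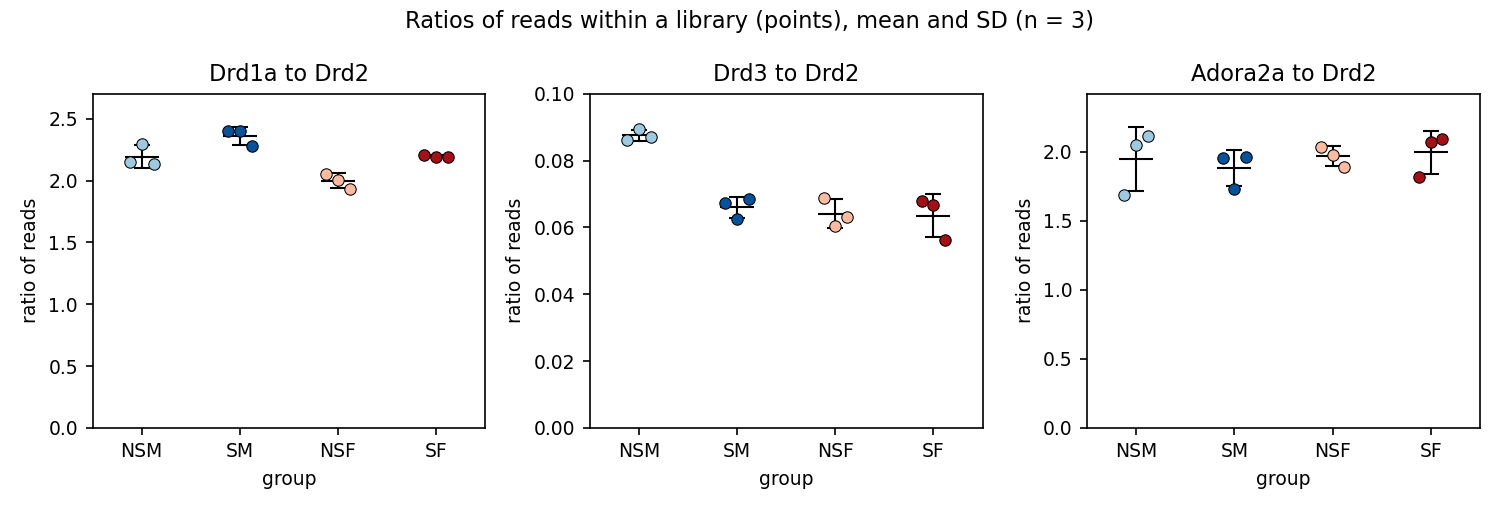
Ratios of reads within a library (vertical axes, starting at 0) by group, with libraries as points and the mean and SD (n = 3) as bars and whiskers. *Drd3* per read of *Drd2* was 0.0861 to 0.0894 in the NSM libraries and at most 0.0689 in the others, *Drd1a* per read of *Drd2* was lowest in NSF (1.94 to 2.06), and *Adora2a* per read of *Drd2* overlapped between all groups.

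Of the 8 genes *Drd3* had the most negative pooled relation to the cortical markers, without an adjusted p under 0.05. Over the 12 libraries its log2 level and the log2 of the cortical marker sum had a Pearson r of -0.721 (p = 0.00779, adjusted over the 8 genes 0.0623) and a Spearman rho of -0.685 (p = 0.0174, adjusted 0.139, permutation tests, two-sided). Without the 2 libraries farthest from the median marker level r was -0.553. Within groups, with the group means removed, r was -0.463 (p = 0.0509, adjusted 0.152, exact permutation within groups). For the other 7 genes the pooled r lay between -0.456 (*Gnal*) and 0.0593 (*Ppp1r1b*), with unadjusted p of at least 0.135. Within groups all 8 coefficients were negative, from -0.361 for *Rgs9* to -0.746 for *Adcy5*, with unadjusted p of at least 0.0509 (exact permutation within groups). There only the coefficient of *Rgs9* was weaker than that of *Drd3*. NSM had both the lowest marker sums and the highest *Drd3* levels, so the pooled coefficient also holds the difference between groups.

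**Figure D4:**
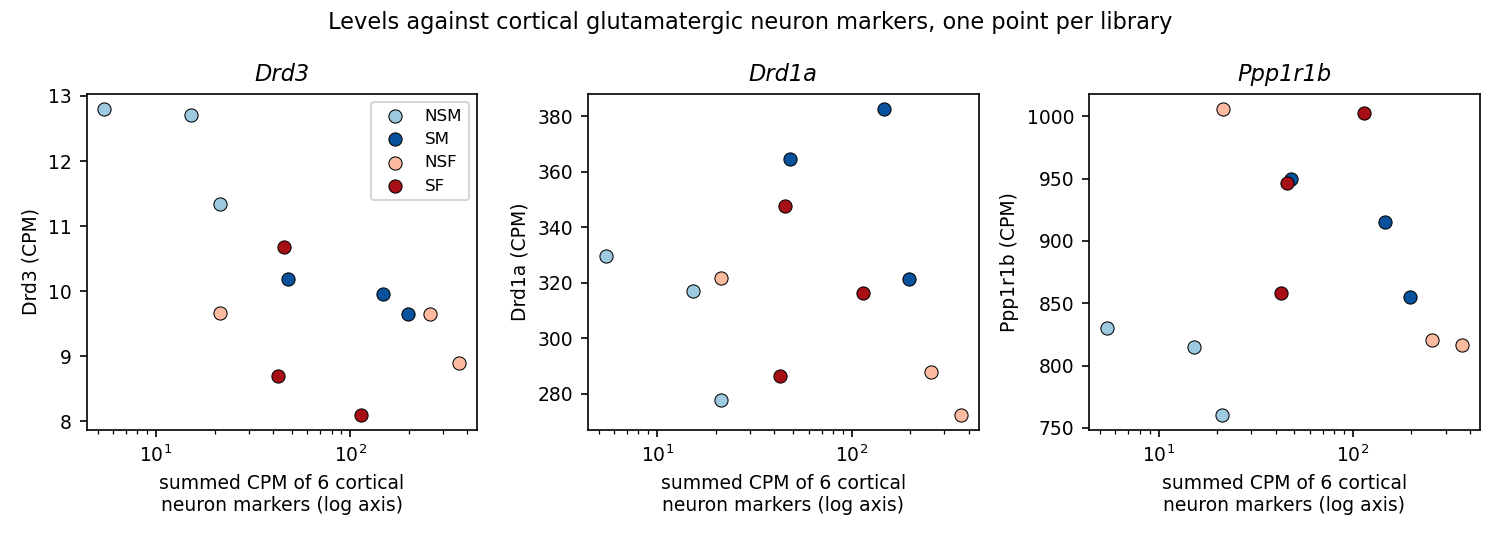
Level in CPM (vertical axes, not starting at 0) of *Drd3*, *Drd1a* and *Ppp1r1b* against the summed CPM of 6 cortical glutamatergic neuron markers (horizontal log axis), 1 point per library, colored by group. *Drd3* was highest in the 3 NSM libraries at marker sums of 5.43 to 21.3 CPM, and NSF replicate 2, at 21.3 CPM, had 9.67 CPM of *Drd3*, while *Drd1a* and *Ppp1r1b* showed no pooled trend.

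The genes varied together from pool to pool. Deviations of log2 CPM from the group mean were positively correlated in 28 of 28 pairs of the 8 genes, with a median Pearson r of 0.620. These values come from the same 12 libraries and share their scaling. With p values from exact permutation of libraries within groups, adjusted over the 28 pairs, Pearson r had an adjusted p under 0.05 in 7 pairs and Spearman rho in 4. When libraries were scaled by size alone, 1 pair, *Drd1a* and *Gnal*, remained under 0.05 by Pearson r. With that scaling *Drd1a* and *Drd2* had an r of 0.925 (adjusted p = 0.0540, exact permutation). *Ppp1r1b* and *Adcy5* then had 0.893 (adjusted 0.176), *Drd3* and *Gnal* 0.644 (adjusted 0.164), and *Adcy5* and *Adora2a* 0.742 (adjusted 0.108, exact permutation). The values that follow are with TMM scaling. *Drd1a* and *Drd2* had an r of 0.951 (p = 0.00309, adjusted 0.0288) and a rho of 0.965 (adjusted 0.0324, exact permutation), and r was 0.948 without the 2 farthest libraries. *Drd1a* and *Gnal* had an r of 0.930 (adjusted 0.0216) and a rho of 0.937 (adjusted 0.0216, exact permutation, p = 0.000772 being the smallest the permutations allowed), and 0.907 without the 2. *Ppp1r1b* and *Adcy5* had an r of 0.931 (adjusted 0.0463) and a rho of 0.888 (adjusted 0.0324, exact permutation), and 0.797 without the 2. *Drd3* was related to *Gnal* (r = 0.698, adjusted p = 0.0463, rho = 0.706, adjusted p = 0.0519, exact permutation) but had its lowest coefficients with *Adcy5* (0.150) and *Adora2a* (0.0848). *Adora2a* had an r of 0.341 with *Drd2*, with which it shares a cell class, and of 0.780 with *Adcy5* (adjusted p = 0.0288, exact permutation, rho = 0.727, adjusted 0.0540).

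**Figure D5:**
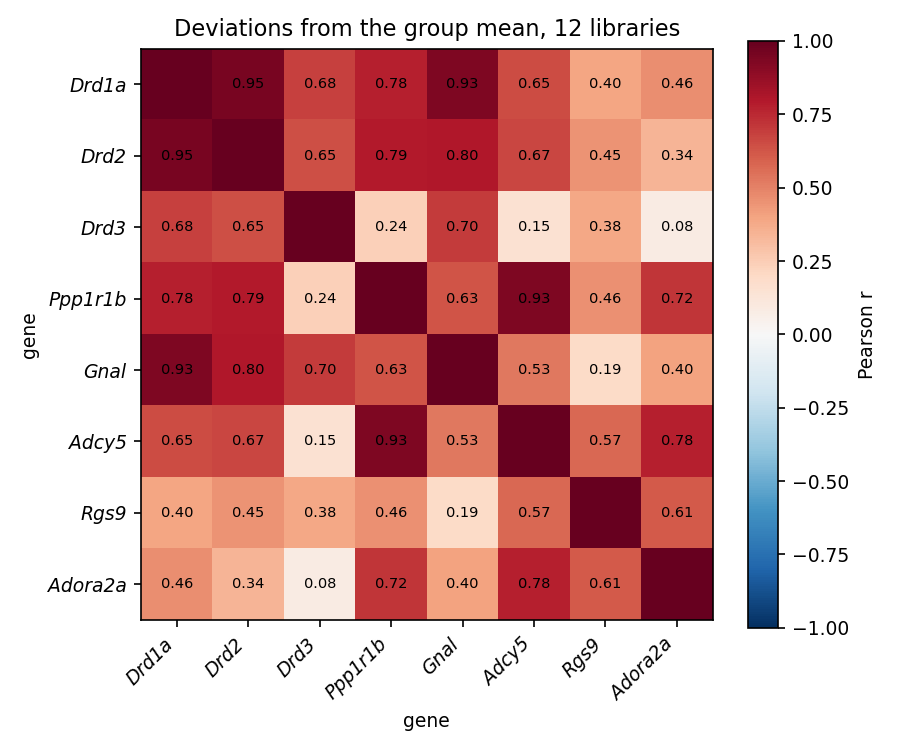
Pearson r between the genes named on both axes, of the deviations of log2 CPM from the group mean over 12 libraries, with red for positive and blue for negative values (scale -1 to 1). All 28 pairs are positive, with the highest values for *Drd1a* with *Drd2* (0.951) and the lowest for *Drd3* with *Adora2a* (0.0848).

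The genes most like each member over the 12 libraries were found by Pearson r of log2 CPM among 12883 genes with a mean of at least 100 reads, given as a description. *Drd1a* was most like *Arpp21*, which encodes a cyclic AMP-regulated phosphoprotein of the striatum (r = 0.981), and *Klhl2* (0.975). *Drd2* was most like the calcium channel subunit gene *Cacnb2* (0.888), *9430020K01Rik* (0.887) and *Arhgap32* (0.883). *Drd3* was most like *Lrrn3* (0.940), *Ttc39c* (0.939) and *Ddx47* (0.936). *Ppp1r1b* was most like the phosphodiesterase gene *Pde2a* (0.936), *Stk32c* (0.930) and *Rasd2*, a striatal small G protein gene (0.927). *Gnal* was most like *E130309F12Rik* (0.986). *Adcy5* was most like *Mapk4* (0.975), the calmodulin kinase gene *Camk2b* (0.938) and *Rgs20* (0.936). *Rgs9* was most like *Tyro3* (0.889), *Dctd* (0.848) and *Hace1* (0.824), and *Adora2a* was most like *C2cd2l* (0.877), *Hpca* (0.841) and *Rasl10b* (0.824).

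Other genes of the pathway were described from lists of receptors, G proteins, RGS proteins, cyclases, kinases, phosphatases and spiny neuron genes. Of 77 listed genes found by symbol among the counted genes 76 were tested. *Gpr52*, also on the list of D2-type spiny neuron genes, was not found by symbol. *Drd4* had 0 to 7 reads per library and was not tested, and the D1-like receptor gene *Drd5* was measured at 1.67 to 2.55 CPM. In SM against NSM 4 of the 76 rose by both thresholds and 0 fell, where 2.36% of all genes were called higher and 4.08% lower, and 7 rose and 0 fell at an adjusted p under 0.05 (1.48% and 1.84% of all genes). The adjusted calls depended on the fit. Over all genes there were 618 of them, 79 without SM replicate 2, 101 without NSM replicate 3 and 1 with the cortical marker level as a covariate, where the 7 pathway genes had adjusted p of 0.0775 (*Scn4b*) to 0.317 (*Adcy1*, limma). By both thresholds, 1198 of all genes were called in the main fit and 1309 with this covariate. The median log2 fold change of the 76 genes was 0.06, beside -0.01 over all genes. In females none of the 76 passed both thresholds, where 1.73% of all genes did, and 3 had an unadjusted p under 0.05, where 4.23% of all genes did. The female median was 0.04, beside -0.0039 over all genes.

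The 4 pathway genes called in males were *Adcy1*, *Scn4b*, *Ppp3ca* and *Rgs4*. *Adcy1*, a calcium-stimulated cyclase, had 205 ± 9.75 CPM in NSM and 282 ± 15.2 CPM in SM, a log2 fold change of 0.46 (SE 0.10, adjusted p = 0.0245, limma). *Scn4b*, a sodium channel subunit gene of spiny neurons, went from 923 ± 69.6 to 1245 ± 89.2 CPM, by 0.43 (SE 0.10, adjusted p = 0.0360, limma). *Ppp3ca*, the catalytic subunit of calcineurin, which dephosphorylates DARPP-32, went from 1673 ± 112 to 2203 ± 250 CPM, by 0.39 (SE 0.09, adjusted p = 0.0405, limma), and *Rgs4* from 370 ± 27.1 to 498 ± 55.1 CPM, by 0.42 (SE 0.11, adjusted p = 0.0598, limma). In each of these 4 genes every SM pool was above every NSM pool, where 23.0% of all genes separated the groups in either direction. The genes were chosen by the call on these same libraries, so this separation adds no evidence. When single libraries were left out, the fold of 1.3 was missed by *Rgs4* without NSM replicate 3 (0.37) or SM replicate 2 (0.37), by *Scn4b* without NSM replicate 3 (0.37), and by *Ppp3ca* without NSM replicate 3 (0.34), SM replicate 1 (0.36) or SM replicate 2 (0.33), each with an adjusted p above 0.05. *Ppp3r1*, the regulatory subunit of calcineurin, *Ppp1r1a*, which encodes an inhibitor of protein phosphatase 1 related to DARPP-32, *Rgs7* and its binding partner *Rgs7bp* had log2 fold changes of 0.30 to 0.32 and adjusted p of 0.0183 to 0.0458 (limma), short of the fold of 1.3. For these 4 genes the adjusted p rose above 0.05 in 3 to 7 of the 12 fits without 1 library, to at most 0.189 (limma), among them those without NSM replicate 3, SM replicate 1 or SM replicate 2. *Ppp3r1* overlaps *Wdr92* on the same strand. With the cortical covariate *Rgs7* stood at 0.29 (adjusted p = 0.204, limma) and *Ppp1r1a* at 0.34 (adjusted p = 0.126, limma). *Adcy1* stood at 0.18 (adjusted p = 0.317, limma, where its 11 alternatives gave 0.000190 to 0.317) and was no longer called. *Scn4b*, *Ppp3ca* and *Rgs4* stayed past both thresholds with this covariate, and *Rgs7bp* and *Ppp3r1* passed both with it.

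In the interaction *Adcy1* was the 1 pathway gene called, at -0.63 (SE 0.14, unadjusted p = 0.000390, adjusted p = 0.142, limma), and with the cortical covariate at -0.24 it was not. In NSF against NSM *Adcy1* (0.51, SE 0.10, adjusted p = 0.0456, limma) and *Rasgrp2*, a Rap activator of spiny neurons (0.42, SE 0.11, adjusted p = 0.106, limma), were higher in females, 2 of the 76 genes, where 4.17% of all genes were called higher, and 0 were lower. *Rasgrp2* missed the fold of 1.3 without NSF replicate 2 (0.31) or NSM replicate 1 (0.32). *Adcy1* was not called there with the cortical covariate (0.20) or without the 2 libraries highest in cortical markers (0.25). In SF against SM *Gnas*, the general stimulatory G protein subunit (0.55, SE 0.18, adjusted p = 0.144, limma), and *Sp9*, a transcription factor gene of D2-type spiny neurons (0.52, SE 0.13, adjusted p = 0.0950, limma), were higher in females, 2 of the 76 genes, where 4.58% of all genes were called higher. *Gnas* is overlapped by *Nespas* and *AF085738* on the opposite strand, and was counted at 12.4 to 22.2 CPM. Whether this count holds all reads of *Gnas* was not tested, so the value describes the count alone. *Zic4*, 1 of the 2 tested markers of hypothalamus and septum, was also called higher in females. Its log2 fold change was 0.97 in NSF against NSM and 1.09 in SF against SM. The other tested marker of this list went the other way, at -0.22 and -0.15, and was not called. The part of *Zic4* in the values of the pathway genes was not tested.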

How the data were processed

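The authors aligned paired reads to the Ensembl NCBIM37 genome (version 67) with TopHat2 and counted them per gene with HTSeq. The strand setting and tool versions are not given in the sources used here. The deposited values are raw read counts per gene, without normalization, for 12 mRNA libraries (41076780 to 60867747 reads), all of which were used and grouped by their labels. The small RNA table was not used. Symbols and positions came from the GENCODE annotation of NCBIM37.

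Following the study's methods, genes were kept if they exceeded 5 reads in 80% or more of the libraries of any group and fitted by voom and limma. The filter left 18593 genes, fewer than the study tested, for a reason not given in the sources used here. Scaling by TMM factors (edgeR 4.0.16) was chosen here, as the study's methods name none, and limma 3.58.1 was run in R 4.3.3 with one mean per group over all 12 libraries. Calls, adjusted p and CPM are as defined in the text. As alternatives, the quasi-likelihood test of edgeR, DESeq2 1.42.0, other scalings, filters, thresholds and sample sets, and the cortical marker level as a covariate were used. The fits were tested on simulated data. Relations between members were tested by enumerating all 1296 rearrangements within groups in place of random draws, with Python 3.11.15, scipy 1.17.1 and numpy 2.4.6. Relations with cortical markers used 100000 permutations. Single-gene results of some genes, among them 1 cortical marker that entered the marker sum, are not reported here. The members and gene lists were chosen with earlier results of these data known. All 8 members were named in every comparison, and other pathway genes where they were called or had an adjusted p under 0.05. The fit without the 2 libraries highest in cortical markers, and the receptor ratios, were added after the data were seen.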

Additional observations from a re-analysis of the deposited data

Results flagged for a closer look

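*Adcy1* was called in the test of a difference between the sexes in the effect of SCVS. The sex-by-stress interaction was -0.63 on the log2 scale (SE 0.14, adjusted p = 0.142, limma), with a rise of 0.46 in males and a value of -0.18 in females, and it was called by the unadjusted threshold alone. Leaving out single libraries gave -0.75 to -0.52, and the cortical marker level as a covariate -0.24.

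*Rgs7* was higher in all NSF libraries (36.3 to 37.8 CPM) than in all NSM libraries (31.3 to 35.5 CPM), whereas under stress all SF libraries (36.5 to 39.7 CPM) lay below the SM mean (41.6 ± 4.12 CPM). The stressed groups overlapped, with 38.2 CPM in SM replicate 3, and 19.5% of all genes did not overlap between NSF and NSM. The interaction, -0.26 (SE 0.10, adjusted p = 0.410, limma), was not called.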

How the results depend on the processing

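Over all alternatives 0 members were called in females, in the interaction and in SF against SM. In males the count moved from 0 to 1 (*Drd1a*) with the cortical covariate and to 3 (*Drd1a*, *Drd3* and *Ppp1r1b*) without a fold threshold. In NSF against NSM it moved from 1 to 0 with the cortical covariate, without the 2 libraries highest in cortical markers and by adjusted p alone, and was 0 to 1 when single libraries were left out. Pairs of members under an adjusted p of 0.05 fell from 7 to 1 (*Drd1a* with *Gnal*) under scaling by library size only. The cause of these changes was not tested.

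Some small log2 fold changes of members changed sign. With the cortical covariate these were the interaction of *Gnal* (-0.18), NSF against NSM for *Drd1a* (0.13) and *Gnal* (0.0283), and SF against SM for *Ppp1r1b* (-0.00334) and *Adora2a* (-0.0203). Without the 2 libraries highest in cortical markers they were the female values of *Drd1a* (-0.0145), *Ppp1r1b* (-0.0954) and *Adcy5* (-0.0590), the interaction of *Gnal* (-0.0413) and NSF against NSM for *Drd1a* (0.0511). Library quality weights turned the female value of *Adora2a* (0.00661), quantile normalization its SF against SM value (-0.00449), and size scaling the interaction of *Adcy5* (0.00295) and the r of *Drd3* with *Adora2a* (-0.0255). With single libraries left out, ranges crossed 0 in females for *Drd2* (-0.0968 to 0.0442), *Drd3* (-0.163 to 0.0295), *Rgs9* (-0.103 to 0.0267) and *Adora2a* (-0.0693 to 0.0551), in the interaction for *Ppp1r1b* (-0.144 to 0.0144), *Gnal* (-0.0470 to 0.0801) and *Adcy5* (-0.0802 to 0.0589), in NSF against NSM for *Adcy5* (-0.00164 to 0.124), and in SF against SM for *Ppp1r1b* (-0.00757 to 0.0943) and *Adora2a* (-0.0224 to 0.0453).

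Whether same-numbered libraries were paired was not settled. Their deviations correlated at 0.0244, -0.000323 and 0.315 in males (0.141 pooled) and at 0.101, 0.0779 and 0.107 in females (0.0976 pooled). The pooled r was 0.0844 for NSM with NSF and -0.00132 for SM with SF. The minimum r set for a block was 0.1, which the pooled male value passed, but the main fit used no block. With the replicate number as a block the counts of members called were unchanged, 0 in males, 0 in females, 0 in the interaction, 1 in NSF against NSM and 0 in SF against SM, and *Drd3* had adjusted p of 0.0381 in SM against NSM and 0.0206 in NSF against NSM (limma). Over all genes the block raised the number with an adjusted limma p under 0.05 from 618 to 998 in SM against NSM. That number rose from 53 to 562 in NSF against NSM and from 27 to 837 in SF against SM. It stayed at 0 in SF against NSF and went from 5 to 9 in the interaction. With 371 to 720 reads *Drd3* was the least deeply counted member.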
